A study of Salmo salar with 12 samples.

Results

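ABCC2 (multidrug resistance-associated protein 2, also called MRP2 or cMOAT) is described here mainly through 1 microarray probe. That probe was made to a sequence described as ATP-binding cassette sub-family C member 2, whose identifier names no species. The probe, CUST_6715_PI426552878, was chosen by its gene and is 1 of 55468 probes that were not manufacturer controls. It was printed as 1 spot on each of 12 one-colour arrays. The gene name could be given only because the study itself had found the probe changed on these arrays. Tests and ranks below are therefore not those of a probe picked without knowledge of its change. Each array was hybridised with Cy3-labelled RNA from the liver of juvenile Atlantic salmon (parr) kept unfed in lake water in the dark. Fish were held for 48 h in clean water (control) or in water with uranyl acetate, a soluble salt of depleted uranium (DU), at nominal concentrations of 0.25 mg/L (low U), 0.5 mg/L (medium U) and 1.0 mg/L (high U), with 3 arrays in each of the 4 groups. The study asked how the liver transcriptome responded to the chemical toxicity of uranium and how that response depended on concentration. No replicate tanks were described for a group, so the spread between arrays is a spread between RNA samples within a group and not between tanks.

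ABCC2 is an ATP-driven pump. In hepatocytes of mammals it lies in the canalicular membrane, the apical face that borders the bile canaliculus, and it moves organic anions out of the cell against their gradient. Its cargo is mostly the product of phase II metabolism, that is compounds joined to glucuronic acid, glutathione or sulphate, and includes bilirubin glucuronides. The export of glutathione by ABCC2 also drives a part of bile flow that does not depend on bile salts. Carriers on the blood side, chiefly the organic anion transporting polypeptides (SLCO family), bring organic anions into the cell, conjugating enzymes modify them, and nuclear receptors set the amount of pump and enzyme that is made. These roles come from mammals, and the array measured transcripts and not protein or transport. In liver homogenate a change in the number of hepatocytes and a change in the amount of transcript per hepatocyte cannot be told apart.

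In liver the ABCC2 probe was higher at each of the 3 DU concentrations than in control fish, by about 3- to 4-fold. Relative to the brightness of each array, a second probe tied to ABCC2 went the other way, as described below. The direction for the gene was therefore not settled. Levels and changes given for ABCC2 are those of the first probe, named above. Processed intensity is the background-subtracted brightness reported by the scanner software. For the first probe it was 104, 72.5 and 113 on control arrays 1, 2 and 3. It was 555, 678 and 525 on low U arrays, 770, 930 and 834 on medium U arrays, and 222, 451 and 485 on high U arrays. Every one of the 9 exposed arrays was brighter than the brightest control array, and the dimmest exposed array was high U replicate 1. These intensities were not scaled for the brightness of the whole array. Without scaling, 57.7% of the 29456 probes tested were also called higher in exposed than in control fish, by the test described below. The share of probes without overlap was not counted on this unscaled measure.

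The signal was measured well inside the range of the scanner in all groups. The median brightness of the spot was 12.5 to 36.2 times its local background on exposed arrays and 4.07 to 6.20 times on control arrays. The scanner software marked the spot as well above background on all 12 arrays, and as neither saturated nor an outlier on any of them. The error that the software attached to the processed intensity was at most 10.6%, which is small beside the differences between exposed and control arrays.

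Brightness as a whole was not equal between the arrays. The 75th percentile of processed intensity, taken over all spots other than controls, lay between 68.8 and 154 on exposed arrays and between 55.7 and 73.8 on control arrays. The share of spots well above background was 46.0% to 61.7% on exposed arrays and 45.3% to 49.7% on control arrays. For the comparisons the log2 intensity of each array was therefore set relative to its own 75th percentile (the scaled level), so that 0 stands for that percentile and 1 unit for a doubling.

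On this scale ABCC2 was at 0.50, 0.38 and 0.66 on control arrays, at 2.30, 2.30 and 2.05 on low U arrays, at 2.33, 2.60 and 2.78 on medium U arrays, and at 1.69, 2.34 and 2.36 on high U arrays. The groups of exposed and control arrays did not overlap, with a gap between 1.69 on the lowest exposed array and 0.66 on the highest control array. All 9 exposed arrays also stood above all 3 control arrays for 8.48% of the 29456 probes tested. The mean scaled level was 0.51 ± 0.14 in control, 2.22 ± 0.15 in low U, 2.57 ± 0.22 in medium U and 2.13 ± 0.38 in high U fish (SD, n = 3 each).

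**Figure D1:**
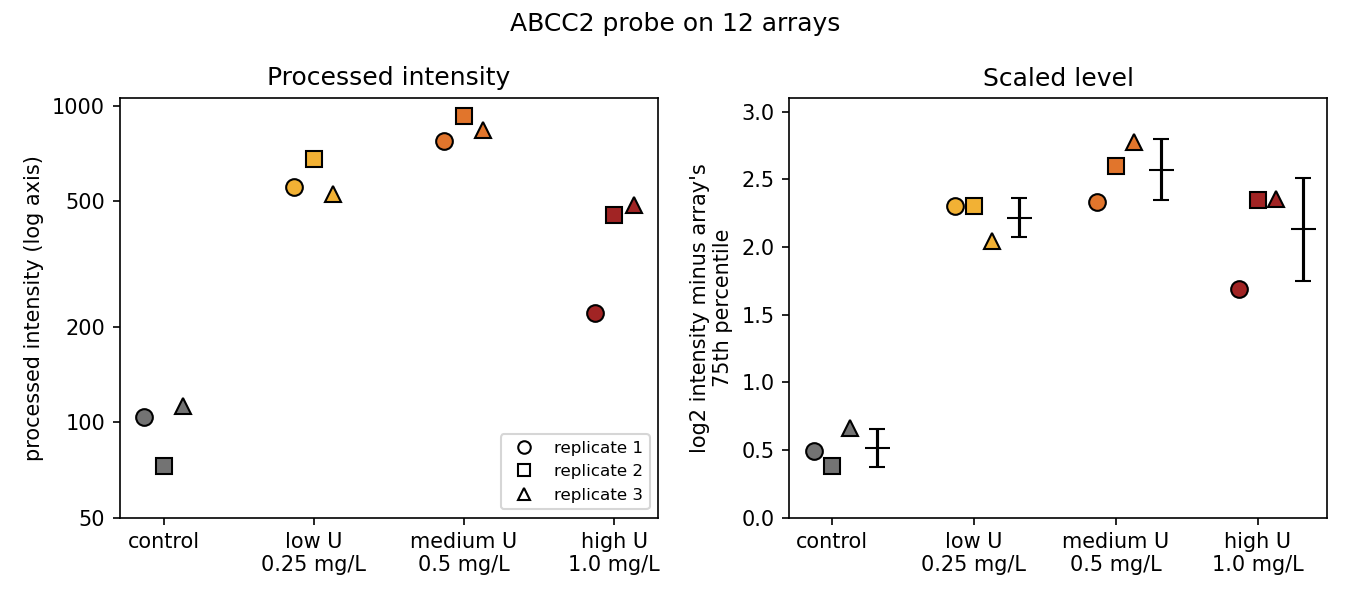
Processed intensity (left, log axis) and scaled log2 level (right) of the ABCC2 probe on 12 arrays, grouped by nominal concentration of depleted uranium; symbols mark the replicate number and the bars on the right the mean and SD of 3 arrays. The 9 exposed arrays lie between 222 and 930 in intensity, all above the 3 control arrays at 72.5 to 113, and high U replicate 1 is the lowest of the exposed arrays. Intensities on the left are not scaled for the brightness of the whole array.

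A linear model over the 4 groups (limma) was fitted to the 29456 probes for which all 3 arrays of some group were well above background. A probe was called when its Benjamini-Hochberg adjusted p was below 0.05 and its fold change at least 1.5. ABCC2 was 3.26-fold higher in low U than in control fish (log2 fold change 1.70, SE 0.21, limma adjusted p = 0.0048). In medium U fish it was 4.16-fold higher than in control fish (log2 fold change 2.06, SE 0.21, limma adjusted p = 0.0012), and in high U fish 3.07-fold higher (log2 fold change 1.62, SE 0.21, limma adjusted p = 0.0063). The 95% intervals of these folds were 2.34 to 4.52, 2.99 to 5.78 and 2.21 to 4.26. ABCC2 was thus called higher at all 3 concentrations. When only the 2 groups compared entered the fit, the folds stayed the same but the adjusted p was 0.066 for low U and 0.072 for high U, so that of the single concentrations medium U alone was called. That fit called, in either direction, 1 probe of 29456 (0.00339%) in low U, 1648 (5.59%) in medium U and 1 (0.00339%) in high U fish. With all 4 groups in the fit, 4.02% of all probes tested were called higher in low U, 6.68% in medium U and 2.58% in high U fish, and 2.05% were called higher in all 3.

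Averaged over the 3 concentrations with equal weight, ABCC2 was 3.46-fold higher in exposed than in control fish (log2 fold change 1.79, 95% interval 1.40 to 2.18, limma adjusted p = 0.00057), a comparison in which 7.96% of probes were called higher. The median log2 fold change of all probes tested was 0.04. Of the 29456 probes, 181 or 0.614% had a larger increase than ABCC2 and 33 had a lower adjusted p. The exact permutation test of 9 exposed against 3 control arrays gave a two-sided p of 0.0045, the smallest that its 220 regroupings allow. With 3 arrays against 3 the same exact test gave p = 0.1 for each single concentration against control, which is the smallest it can give. The moderated F-test over the 4 groups gave an adjusted p of 0.0048 for ABCC2, and 4.82% of probes were called by it.

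Each of the 3 slides carried 1 array of every group, so the change could also be read within a slide. The log2 difference from the control array of the same slide was 1.55, 1.92 and 1.64 for low U, 2.10, 1.95 and 2.12 for medium U and 1.85, 1.31 and 1.69 for high U on slides 1, 2 and 3. All 9 of these within-slide differences were positive, which follows from the lack of overlap between exposed and control arrays given above. With slide as a block in the fit the limma adjusted p was 0.0033 for low U, 0.0010 for medium U and 0.0043 for high U against control. The block raised calls across the array. Of all probes tested, 6.55% were then called higher in low U, 8.76% in medium U and 4.34% in high U fish. Without the block the shares were 4.02%, 6.68% and 2.58%.

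The mean level of ABCC2 was highest in medium U fish, but the 3 concentrations were not separated from each other by the test. Medium U exceeded low U by 0.35 on the log2 scale (95% interval -0.12 to 0.83, limma adjusted p = 1.00). Their arrays were apart by a narrow margin, the lowest medium U array being at 2.33 and the highest low U array at 2.30. The exact permutation test of these 3 against 3 arrays gave p = 0.1, the smallest it can give. The share of all probes whose arrays were apart in this comparison was not counted. High U minus medium U was -0.44 (95% interval -0.91 to 0.03, limma adjusted p = 0.79), and these arrays overlapped by a narrow margin. High U minus low U was -0.09 (95% interval -0.56 to 0.39, limma adjusted p = 0.99), with 2 high U arrays above the low U arrays and 1 below them. Medium U minus the mean of low U and high U was 0.40 (95% interval -0.01 to 0.81, limma adjusted p = 1.00). Their intervals leave room for a medium U level up to 1.77-fold above low U and for a high U level as low as 0.53 of medium U. No probe was called in any of these 4 comparisons (0% of those tested), although ABCC2 had an unadjusted limma p of 0.066 for high U minus medium U and of 0.057 for medium U minus the mean of the other groups.

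Within slides, medium U minus low U was 0.55, 0.03 and 0.48 on slides 1, 2 and 3, and high U minus medium U was -0.25, -0.64 and -0.42. Both steps thus had the same sign on all 3 slides. For medium U minus low U this followed from the lack of overlap between their arrays. Neither step was called with slide as a block (limma adjusted p = 0.997 for medium U minus low U and 0.46 for high U minus medium U). The share of all probes with 1 sign on all 3 slides was not counted. High U minus low U was 0.30, -0.61 and 0.05 and changed sign between slides.

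The drop between medium U and high U depended on the scaling. With the mean of 7 manufacturer spike-in probes in place of the 75th percentile, high U minus medium U was -1.20 (adjusted p = 0.024), and with no scaling it was -1.21 (adjusted p = 0.031), so that ABCC2 was then called lower in high U than in medium U fish, as were 36.2% of all probes tested with spike-in scaling and 34.5% without scaling. Under these 2 scalings the median of all probes tested was itself -0.79 and -0.80 in that comparison. Relative to that median the ABCC2 difference was -0.41 under either, as it was with the 75th percentile. These scalings differ only by a constant for each array, so that likeness was fixed in advance and is no check.

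Against control, the direction and the call of ABCC2 in exposed fish held under every scaling tried. Spike-in scaling gave log2 fold changes of 2.49, 3.05 and 1.85 for low U, medium U and high U, or 5.63-, 8.26- and 3.61-fold, and values without scaling were 2.62, 3.15 and 1.95. With spike-in scaling 50.2% of all probes tested were called higher in low U, 64.0% in medium U and 1.82% in high U fish, and without scaling 60.2%, 69.8% and 2.82%, so that in low U and medium U fish most probes were called as ABCC2 was. The median of all probes tested under spike-in scaling was 0.87, 1.07 and 0.24, and the ABCC2 change above that median was 1.63, 1.98 and 1.61. A change above the median is bound to be nearly the same under 75th percentile, spike-in and no scaling. Quantile normalization gave 1.69, 2.04 and 1.57, and normexp background correction 1.55, 1.89 and 1.35. Size therefore depended on whether the overall difference in brightness was removed.

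**Figure D2:**
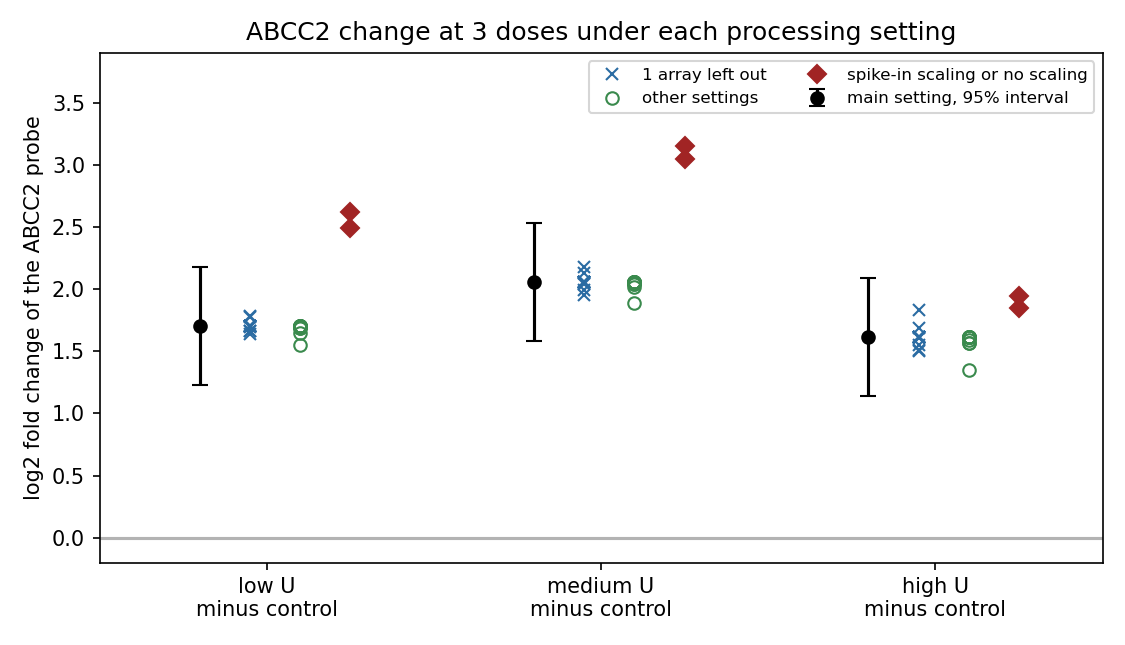
Log2 fold change of the ABCC2 probe against control (vertical axis) in low U, medium U and high U fish under the main setting with its 95% interval, with 1 array left out in turn, under spike-in scaling or no scaling, and under the other settings. All points lie above 0, and the spike-in and unscaled values are the highest at each concentration, up to 3.15 in medium U.

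The spread of ABCC2 between arrays of a group was small in control and low U fish and larger in high U fish. Its SD was 0.14 in control, 0.15 in low U, 0.22 in medium U and 0.38 in high U fish, against medians over all probes tested of 0.33, 0.28, 0.26 and 0.27. Fewer probes had a smaller SD than ABCC2 in control (12.9%) than in high U (65.9%). The high U spread came from replicate 1, at 1.69 beside 2.34 and 2.36, and that array also had the lowest 75th percentile of the exposed arrays, 68.8. Without it the high U change was 1.836. That value is the upper end of the 1.503 to 1.836 found when any 1 of the 12 arrays was left out. The residual SD of ABCC2 over the whole fit was 0.24, with a median over probes of 0.34, and 25.8% of probes had a smaller one.

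A second probe on the array was also tied to ABCC2, and it did not follow the first. Only probes that the study had found changed could be named, so an unchanged ABCC2 probe would have been missed. CUST_43325_PI426552878 is described as multidrug resistance associated protein 2. Its identifier belongs to the rainbow trout sequences from which a part of the array was designed, and that of the first names no species. No other probe was made to the sequence of the first. Processed intensities of the second probe were 825, 649 and 719 on control arrays, 642, 662 and 586 on low U arrays, 674, 521 and 599 on medium U arrays, and 305, 407 and 422 on high U arrays. It was well above background on all 12 arrays. In unscaled intensity only the high U arrays were clearly below control, and 7 of the 9 exposed arrays were below every control array.

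On the scaled log2 level the second probe was at 3.48, 3.54 and 3.34 in control, 2.51, 2.26 and 2.21 in low U, 2.14, 1.76 and 2.30 in medium U, and 2.15, 2.20 and 2.15 in high U fish. All 9 exposed arrays were then below all 3 control arrays, as they were for 5.64% of probes. The log2 fold change was -1.13 in low U (SE 0.18, limma adjusted p = 0.0084), -1.39 in medium U (SE 0.18, limma adjusted p = 0.0022) and -1.29 in high U fish (SE 0.18, limma adjusted p = 0.0071). The second probe was called lower at all 3 concentrations, as 0.648% of probes were. With only the 2 groups compared in the fit its change stayed the same but was called in medium U alone, the adjusted p being 0.071 for low U and 0.068 for high U. With all 4 groups in the fit, called lower at a single concentration were 2.21% of probes in low U, 4.90% in medium U and 1.13% in high U fish.

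This decrease also depended on the scaling. With spike-in scaling it was -0.34 in low U (limma adjusted p = 0.18), -0.40 in medium U (limma adjusted p = 0.11) and -1.05 in high U fish (limma adjusted p = 0.029), and only the high U change was called. Unscaled values gave -0.21, -0.29 and -0.96, again with only high U called. Averaged over the 3 concentrations the second probe was at -0.60 with spike-in scaling and -0.49 without scaling, the last short of the 1.5-fold limit. Over the 12 arrays the scaled levels of the 2 probes had a Pearson r of -0.92, and an r of 0.11 once group means were subtracted. Which of the salmon transcripts each probe binds was not tested.

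**Figure D3:**
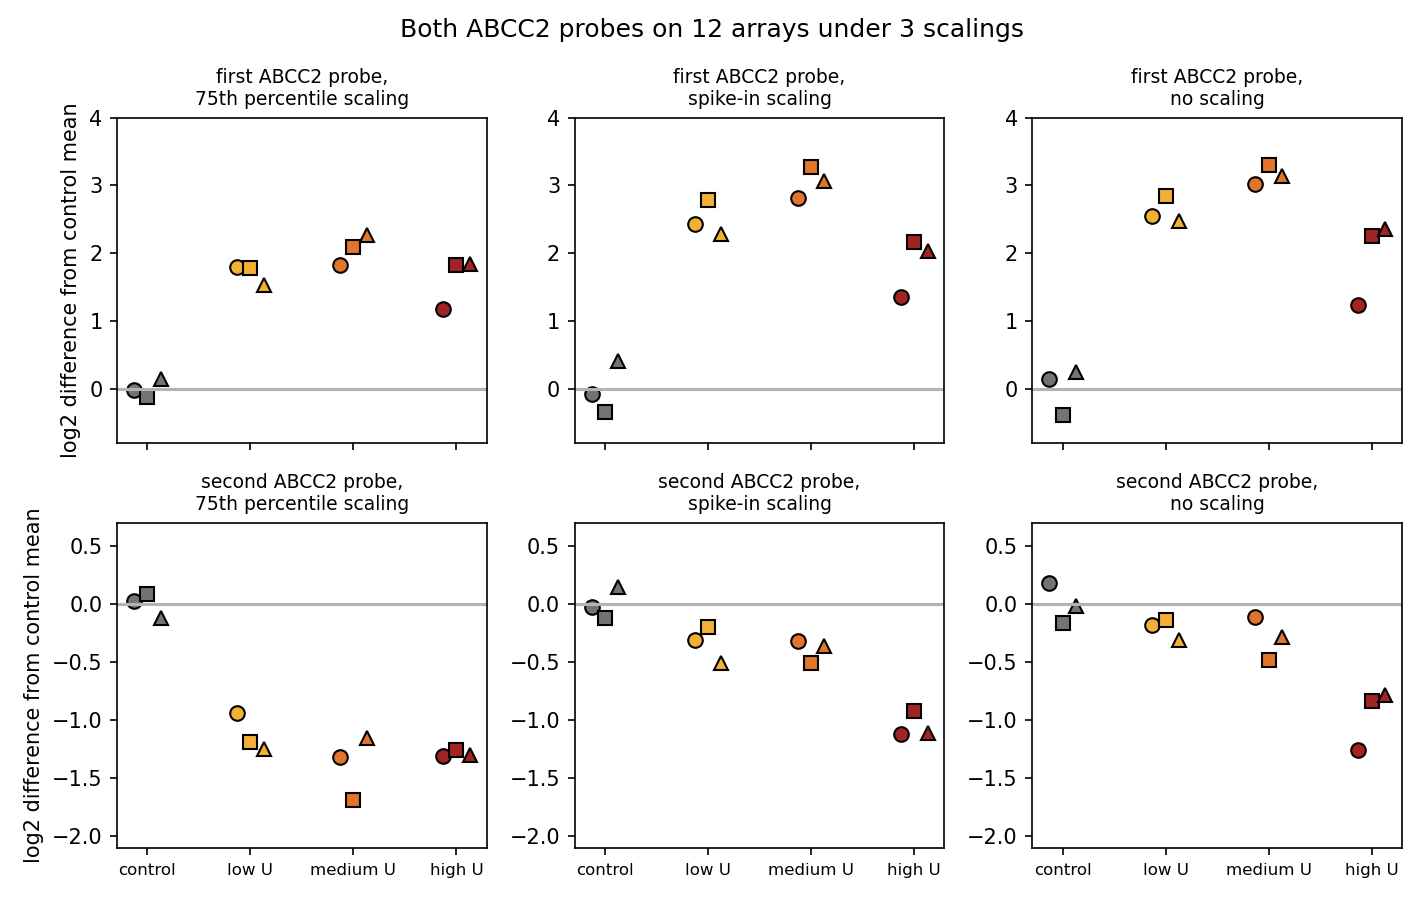
Log2 difference from the control mean (vertical axis) of the first ABCC2 probe (upper row) and the second (lower row) on 12 arrays, under 75th percentile scaling, spike-in scaling and no scaling; symbols mark the replicate number. The first probe lies above control on all 9 exposed arrays under each scaling, and the second is below all controls on 9 exposed arrays in the left and middle panels and on 7 without scaling.

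The other steps of conjugate handling were followed through 21 probes that could be tied to a list of transporters, receptors, conjugating enzymes and bile acid enzymes. Names could be given only to probes that the study itself had found changed on these arrays, so the counts below are not independent evidence of a direction. In exposed against control fish 19 of the 21 were called higher and 2 lower (13.4% of all probes tested were called in either direction). The median log2 fold change of the 21 was 1.84, beside 0.04 over all probes tested. In low U fish 19 were called higher and 2 lower, in medium U fish 19 and 2, and in high U fish 16 and 1, beside 6.23%, 11.6% and 3.71% of all probes called in either direction. Called lower in exposed fish were 5.45% of all probes tested. With normexp background correction 14 of the 21 were called higher and 1 lower in exposed fish, and with spike-in scaling or no scaling 19 were called higher and 0 lower. Of all probes tested, 7.18% were called higher under normexp, 49.0% with spike-in scaling and 57.7% without scaling. With only the 2 groups compared in the fit, an alternative added after the data were seen, 0 of the 21 were called in low U (limma adjusted p from 0.066 to 0.13), 18 higher and 1 lower in medium U, and 0 in high U fish (limma adjusted p from 0.057 to 0.28). At an unadjusted limma p below 0.05 that fit had 19 higher and 2 lower in low U, and 19 and 1 in high U fish. The share of all probes tested that passed this unadjusted limit was not counted. Since the 21 were named for being changed on these arrays, no conclusion is drawn from those unadjusted counts. The single-concentration calls of list members below are those of the fit with all 4 groups. Rainbow trout identifiers were also carried by the list probes of ABCC3, NR1H4, SULT2B1 and UGT1 family A3 and B7.

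Of the export pumps only ABCC3 was named besides ABCC2. ABCC3 lies on the blood-facing membrane of the hepatocyte in mammals and carries conjugates back to the blood. Its scaled level was between -1.01 and -0.24 on exposed arrays and between -1.90 and -1.44 on control arrays, where 2 of 3 spots were well above background. ABCC3 was higher by 0.88, 0.79 and 1.20 on the log2 scale in low U, medium U and high U fish (limma adjusted p = 0.034, 0.033 and 0.015). With normexp background correction its change over all exposed fish was 0.23 and was not called.

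A probe with the symbol RDX was called lower. Radixin links ABCC2 to the actin skeleton under the canalicular membrane in mice, but the description of this probe, villin 2, is an older name of the related protein ezrin, so the gene is uncertain. Its scaled level was at most 0.67 on exposed arrays and at least 1.29 on control arrays. The log2 fold change was -1.22, -1.45 and -0.96 in low U, medium U and high U fish (limma adjusted p = 0.012, 0.0037 and 0.038). Over all exposed fish it was -1.21 with the main scaling, -0.54 with spike-in scaling and -0.43 without scaling, and neither of the last values was called.

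Both named uptake carriers belong to the SLCO family, and they differed in sign. SLCO1C1, known in mammals as a carrier of thyroid hormone and organic anions, was higher by 1.11 in low U and 1.35 in medium U fish (limma adjusted p = 0.028 and 0.0080), while its high U value of 0.67 was not called (limma adjusted p = 0.14). SLCO1B3, a hepatocyte uptake carrier of bile acids and conjugated bilirubin in humans, had log2 fold changes of -0.74 in low U and -0.78 in medium U fish, both called lower (limma adjusted p = 0.034 and 0.018), and of -0.48 in high U fish, which was not called. Its change over all exposed fish was -0.67 with the main scaling, 0.0025 with spike-in scaling and 0.11 without scaling, so its direction rested on the scaling.

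Among the nuclear receptors, NR1H4 (the bile acid receptor FXR, which in mammals raises transcription of bile acid export pumps) was higher by 1.38 in low U and 1.86 in medium U fish (limma adjusted p = 0.012 and 0.0023), with a high U value of 0.94 (limma adjusted p = 0.056). NR5A2 (LRH-1, a receptor that takes part in the control of bile acid synthesis) was called higher in all 3 groups, by 1.24, 1.48 and 1.52. The FOXA2 probe (a second table of the study gives it the symbol of the relative FOXA3), for a liver-enriched transcription factor, was called higher over all exposed fish by 1.35, and in low U and medium U among single concentrations. For NR5A2 the change over all exposed fish was 0.35 and was not called under normexp background correction. All 9 exposed arrays were above all 3 control arrays for each of these 3 probes, as they were for 8.48% of all probes tested. Only probes already found changed could be named, so this separation followed in part from the naming.

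Conjugating enzymes, which make the compounds that ABCC2 exports, were represented by 9 UDP-glucuronosyltransferase (UGT) probes and 1 sulfotransferase. All 10 were called higher at each concentration with the main scaling, as were 2.05% of all probes tested. They could be named only because the study had found them changed, so this count is not independent evidence. A UGT1 family A3 probe rose by 2.35, 2.70 and 2.61 on the log2 scale in low U, medium U and high U fish, and a UGT1 family B probe by 2.73, 3.18 and 3.16. SULT2B1, a sulfotransferase that acts on sterols, rose by 1.98, 1.70 and 1.85. These 3 were the brightest of the 10. UGT genes are close copies of one another and probes to them may share transcripts, so the 9 are not independent. For 2 of the UGT probes no control array was well above background, so they entered the test only through exposed arrays. With these 2 at their lower bounds the median of the 21 probes was 1.78.

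The 3 bile acid enzymes that were named, AMACR, CYP39A1 and SLC27A2, were called higher at each concentration with the main scaling. So was NQO1, a quinone reductase that limits redox cycling. Of all probes tested, 2.05% were called higher at all 3 concentrations. Only probes already found changed on these arrays could be named, so these calls are not independent evidence of a direction. SLC27A2, which activates very long-chain fatty acids and bile acids with coenzyme A, had the largest change of the 3 enzymes, 2.18 over all exposed fish. AMACR was at 0.26 and was not called under normexp background correction. NQO1 was higher by 2.26 over all exposed fish and was well above background on 1 of 3 control arrays and on all exposed arrays.

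**Figure D4:**
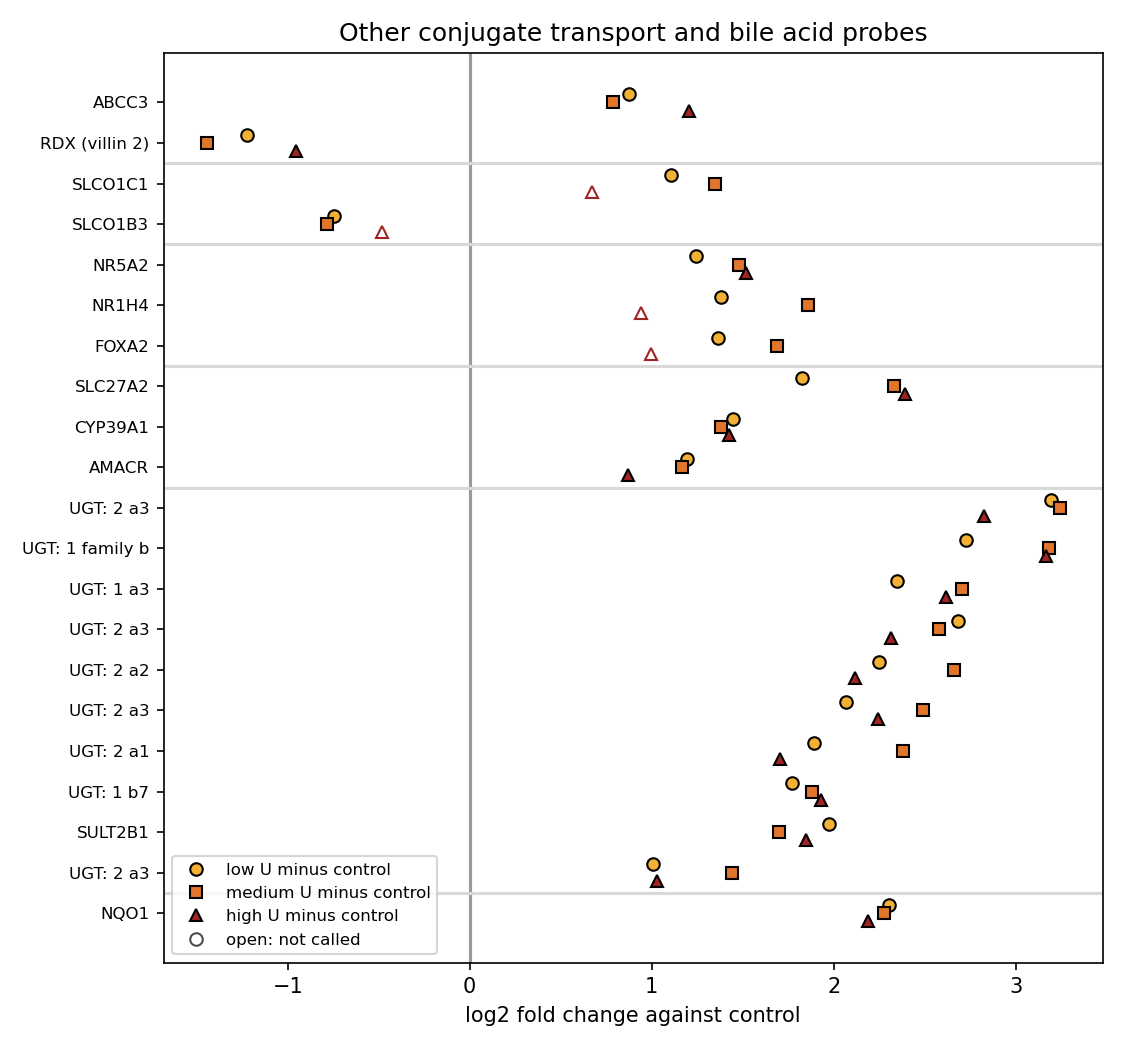
Log2 fold change against control (horizontal axis) of the 21 other named probes of conjugate transport and bile acid metabolism in low U, medium U and high U fish; filled symbols were called and open symbols were not. From top to bottom the blocks are export pump and partner, uptake carriers, nuclear receptors and FOXA2, bile acid enzymes, conjugating enzymes and NQO1; RDX and SLCO1B3 alone lie below 0.

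Of 48 markers of hepatocytes, bile duct, erythrocytes, leucocytes and exocrine pancreas, 1 could be tied to a probe. It was the erythrocyte marker HBB1, a haemoglobin chain. HBB1 was lower in exposed fish, with log2 fold changes of -1.30, -1.65 and -0.88 in low U, medium U and high U fish, and its scaled level was at most 2.11 on exposed arrays and at least 2.85 on control arrays. Averaged over exposed fish the HBB1 change was -1.28 with the main scaling, -0.60 with spike-in scaling and -0.49 without scaling, the last not called. Its part in the ABCC2 result was not tested, and the liver label could not be checked against hepatocyte markers because none of them was named.

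The probes most like ABCC2 over the 12 arrays were sought among 802 other named probes. All 802 had been found changed by the study on these arrays, so a high r followed in part from that selection. Of the 29456 probes tested, 729 had an r of at least 0.9 with ABCC2. The highest Pearson r was 0.99 for COPS6, a subunit of the COP9 signalosome, followed by IGFBP2, a binding protein of insulin-like growth factors (r = 0.99), SLC2A2, the glucose transporter GLUT2 of hepatocytes (r = 0.99), a laminin B2 probe (r = 0.99) and coagulation factor X (F10, r = 0.98). These 5 were higher than control by 1.21 to 1.66 on the log2 scale in low U fish, 1.37 to 1.84 in medium U fish and 1.07 to 1.38 in high U fish, and each had its highest mean in medium U. After subtraction of group means the closest were laminin B2 (r = 0.95), PDCL3 (r = 0.93), EIF2B2 (r = 0.92), FBXO9 (r = 0.92) and a probe described as rapunzel 4 (r = 0.91). All 12 arrays enter each of these values and the arrays share slides and overall brightness, so they describe likeness of pattern only.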

How the data were processed

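Liver RNA of 12 salmon samples was hybridised by the authors to one-colour Agilent arrays, and the deposited scanner files hold Agilent Feature Extraction (version 10.7) output. The processed signal used here is a background-subtracted intensity made by the authors' scanner software, and the deposited background and raw median signals are intensities as well. The authors' deposited value table holds normalized log2 values centred on each probe's median over arrays. It served as an alternative and to name probes. For the names, fold changes printed in the study's gene table were matched to it within a relative tolerance of 2e-05. That step named 863 probes. Of the gene table's entries, 42 were unmatched or ambiguous and 22 were dropped because they shared a probe with another entry. Part of that gene table was not used here.

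Control spots were left out, outlier spots set to missing, repeated spots averaged on the log2 scale and each array's 75th percentile subtracted. A probe was tested if all 3 arrays of some group were well above background for it, with 2 or more values left per group (29456 of 55468 probes). R 4.3.3 and limma 3.58.1 (lmFit, eBayes) gave a 4-group fit, with Benjamini-Hochberg adjustment over all probes tested and calls at an adjusted p under 0.05 with a change of 1.5-fold or more. Only the limma fit was tried on simulated data, which had independent noise and no slide or brightness differences. Scaling, filtering, naming and the permutation tests were not tried on them. Exact permutation tests were two-sided. The labels do not state whether an RNA sample is 1 fish, and p-values measure only the spread between the 3 samples of a group.

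The named probes were the 2 tied to ABCC2, every transporter, receptor and canalicular partner of the list (1 list gene is not reported here), the brightest 3 conjugating enzymes, and the 5 probes most correlated with ABCC2; bile acid enzymes, NQO1 and HBB1 were named after their values were seen. The probe and the lists were chosen with earlier results of these data known. Arrays have no read depth; their number, 3 per group, limits the precision. Other background correction, scaling, filters, blocks, thresholds, samples in the fit and the methods' one-way test were tried as alternatives, and each array was left out in turn. Normexp used the raw median signal, a choice made after the files had been seen, because no mean signal was found in them.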

Additional observations from a re-analysis of the deposited data

How the results depend on the processing

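The increase of ABCC2 over all exposed fish against control kept its direction and its call under 13 alternatives, with log2 fold changes of 1.60 to 2.57 and adjusted p of 0.00011 to 0.0023, and with each of the 12 arrays left out in turn (1.73 to 1.87, adjusted p of 0.00054 to 0.0047). Medium U against control was also called under all 15 alternatives that apply to it, at 1.89 to 3.15. Some alternatives could not undo a call of ABCC2, namely the looser adjusted p limit and the absence of a minimum fold change. Kept outlier spots, other filters and the blocks left the ABCC2 fold change the same and changed only its p. With only the groups compared in the fit, low U (1.70, limma adjusted p = 0.066) and high U (1.62, limma adjusted p = 0.072) against control were no longer called, the fit then holding 6 of the 12 arrays; with arrays left out they were called at 1.64 to 1.79 and at 1.503 to 1.836. High U minus medium U was called under spike-in scaling (-1.20) and no scaling (-1.21) and not otherwise, and it lay between -0.56 and -0.22 with arrays left out. High U minus low U lay between -0.20 and 0.13 with arrays left out, its sign turning without high U replicate 1 (0.13). Medium U minus low U was 0.25 to 0.47, and medium U minus the mean of low U and high U 0.29 to 0.52, with arrays left out. The F-test over the 4 groups had adjusted p of 0.00066 to 0.0147 under the alternatives and of 0.0049 to 0.0334 with arrays left out.

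The second ABCC2 probe turned its sign in high U minus medium U, which was 0.10 with the main scaling, under normexp (-0.10), spike-in scaling (-0.66), no scaling (-0.67) and without medium U replicate 2 (-0.053; the range with arrays left out was -0.053 to 0.22), and in medium U minus the mean of low U and high U under spike-in scaling (0.30) and no scaling (0.29). Of the list of 21 probes, 2 were called lower with the main scaling, 1 under normexp, 0 under spike-in scaling, 0 without scaling, and 1 to 2 with arrays left out, 1 being the count without control replicate 2. The cause of these shifts was not tested.

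Counts of probes called depended strongly on scaling. In exposed against control fish 59.4% of calls were higher with the main scaling (2344 higher, 1604 lower), 79.1% under normexp (2114 and 560), 98.8% under spike-in scaling (14419 and 168) and 99.4% without scaling (16992 and 111). In high U minus medium U, 0 probes were called with the main scaling, 10676 lower and 2 higher under spike-in scaling, and 10173 lower and 2 higher without scaling. With only the groups compared in the fit, 1 probe was called in low U (1834 with all 4 groups), 1648 in medium U (3411) and 1 in high U (1093) against control. The second ABCC2 probe then kept its call in medium U and lost it in low U and high U, and the list had 0 calls in low U and 0 in high U. Counts also moved by over 1.5 times for single concentrations when arrays were left out or the filter, the blocks or the threshold changed.

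Replicate numbers of the scanner files did not pair the arrays. Deviations from the group means of same-numbered arrays had a median correlation of -0.0089. Of these pairs 6 of 18 exceeded 0.1, against 15 of 18 pairs for arrays of the same slide. With the replicate block ABCC2 stayed called at 1.70, 2.06 and 1.62 in low U, medium U and high U against control (adjusted p = 0.012, 0.0041 and 0.015). The methods' one-way test with its Tukey step gave no value for the averaged comparisons, and the list was not tried in the value table or in that one-way test.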

Other observations

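In the deposited value table, the columns of 6 of the 12 arrays were closest to the scanner file of another replicate of the same group. Their correlation over probes with that other replicate was at least 0.888, and with the scanner file of their own label between -0.23 and 0.13. The columns concerned were low U replicates 1 and 3, medium U replicates 1 and 2, and high U replicates 1 and 2, and 0 columns were closest to another group. In each of the 4 groups, the replicate number of a column was the slide number of its closest scanner file. In the value table the replicate number thus followed the slide, which it did not in the scanner files. Group means do not depend on the order of replicates, and ABCC2 changes computed from the table were close to those from the scanner files. The low U array with the ABCC2 value of 2.05 is replicate 3 in the scanner files and would be replicate 1 in the table.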
